A study of Mus musculus with 30 samples.

Results

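The 37 genes described here are read in tissue as signs of macrophages, of their monocyte precursors and of cells that present antigen on MHC class II molecules. They were found by gene symbol from a fixed list, and all 37 of 37 were found among the 54232 gene IDs counted in each library. Some of them had been chosen by measured values, namely opposite cadmium effects in these same libraries at 6 and at 18 weeks, so cadmium values at those times are given as a description and nothing is read from a count of calls there. Their 6 role groups are 14 core macrophage and myeloid genes, the 3 chains of complement C1q, 7 scavenger and surface genes of resident macrophages, 7 MHC class II genes, 3 monocyte genes and 3 genes of lipid handling and the lysosome.

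RNA came from pancreatic islets, the endocrine clusters that hold the insulin-secreting beta cells, of male wild-type C57BL/6N mice. In vivo, mice received vehicle (5 libraries at 6 weeks, 6 at 18 weeks) or 1 mM cadmium chloride (4 libraries at 6 weeks, 5 at 18 weeks). Ex vivo, isolated islets were kept for 96 hours with vehicle or with 0.5 uM cadmium chloride (5 libraries each). The labels name neither the route of dosing nor mouse ages, nor do they say that libraries of a group came from separate animals. All p-values therefore refer to the spread between libraries, part of which may be technical.

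Islets hold a small resident population of macrophages that depend on signalling through the receptor CSF1R. These cells clear debris, tag it with complement C1q and display peptides on MHC class II, a pair of chains (such as those encoded by H2-Aa and H2-Ab1) that travel with the invariant chain Cd74 and are loaded with the help of H2-DM. Class II genes are switched on by the transactivator Ciita, which has no DNA contact of its own and works through factors bound to short conserved boxes before each gene. Dendritic cells and B cells also carry class II, and CCR2 marks monocytes that enter tissue from blood.

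Total counts were 49564350 to 58366797 per library at 6 weeks, 9092759 to 51852364 at 18 weeks (vehicle libraries 4 and 6 and cadmium library 5 held 14751249, 9092759 and 21573301) and 24197072 to 26549350 in culture. Levels below are CPM, counts scaled by library size, with TMM factors that assume that most genes do not differ. The islet label was matched by hormone genes, whose sum had group means of 156610 to 266640 CPM, and the macrophage label by Adgre1, Cd68, Csf1r and all 3 C1q chains, which had reads in all 30 libraries. Together the 37 genes held 0.0350 to 0.121% of a library's counts. Because these are bulk preparations, fewer cells of a type and less RNA per cell cannot be told apart. Exons of Csf1r, Cx3cr1, Folr2, F13a1, H2-DMa and Ciita overlap those of a gene on the other strand. Since no strand setting is named, their counts are uncertain. Exons of Itgam and Cd74 overlap those of a gene on the same strand (Gm49368 and Mir5107), so their counts are uncertain under any strand setting.

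Before any comparison, some libraries stood apart. Among the 6-week vehicle libraries, numbers 1 to 3 stood above 4 and 5 in most of these genes, and the sum over all 37 genes ran from 658 to 1254 CPM in that group. In the 18-week cadmium group, libraries 2 and 3 held high lymphocyte transcripts (72.7 and 120.2 CPM summed over 21 markers of T, B and NK cells, against 4.80 to 15.5 in the other 3). Comparisons with 6-week vehicle islets were refitted without libraries 1 to 3, and the second value is given beside each printed value of the 37 genes that moved by over 1.5 times or gained or lost its call.

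**Figure D1:**
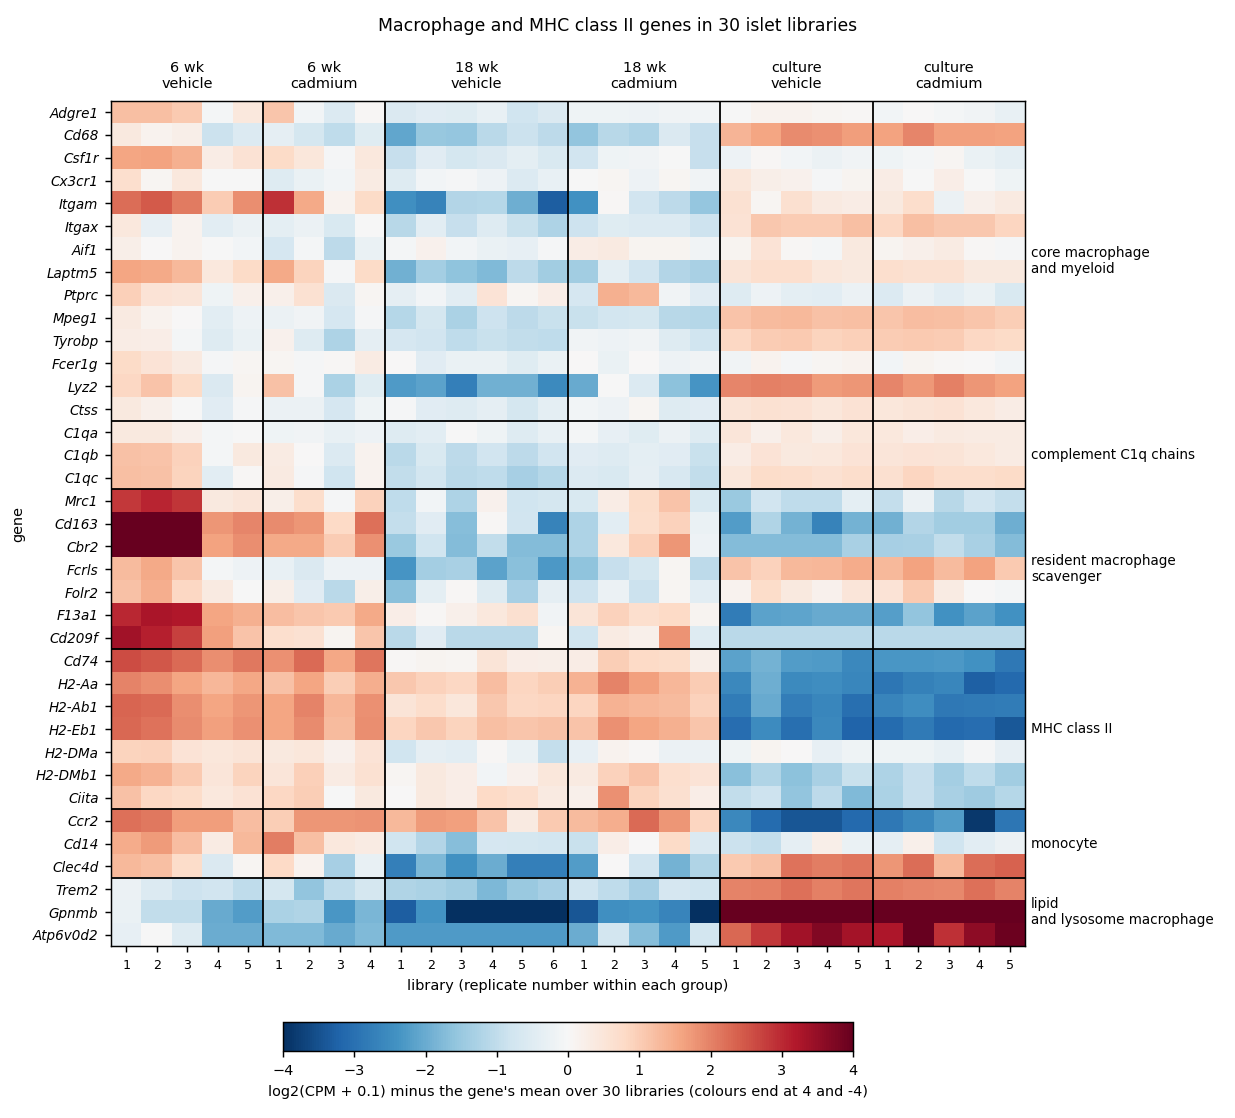
Level of each of the 37 genes (rows, by role) in each of the 30 libraries (columns, by group), as log2(CPM + 0.1) minus the gene's mean over the 30 libraries, red above and blue below that mean. Most class II genes and Ccr2 are blue in all 10 culture libraries, Trem2, Gpnmb and Atp6v0d2 are red there, and 6-week vehicle libraries 1 to 3 are the reddest for Mrc1, Cd163, Cbr2 and Cd209f.

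Compared per kilobase of exon, so that long and short genes can be ranked, the invariant chain gene Cd74 led in 6-week vehicle islets at 126 ± 25.8 CPM per kb (SD, n = 5). Next came Lyz2, the lysozyme of macrophages and granulocytes, at 83.6 ± 34.5 and C1qa at 60.7 ± 9.16, whose ranges overlapped. H2-Eb1 (37.1 ± 6.70), the lysosomal protease gene Ctss (32.1 ± 6.80) and C1qb (32.04 ± 10.8) followed without separating from each other. The lowest was Atp6v0d2, a subunit of the lysosomal proton pump, at 0.0692 ± 0.0592. In 18-week vehicle islets the order began with C1qa (42.9 ± 6.40, n = 6), Cd74 (29.8 ± 3.81) and Ctss (23.4 ± 3.59), and in cultured vehicle islets with Lyz2 (208.0 ± 19.7, n = 5), C1qa (68.5 ± 6.24) and Ctss (45.3 ± 1.95). On this scale Gpnmb, a lysosomal membrane glycoprotein of lipid-laden macrophages, stood at place 35 of 37 at 6 weeks and at place 7 in culture (22.3 ± 2.41). Cd74 stood at place 11 in culture (5.49 ± 0.975).

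Cultured vehicle islets were compared with freshly isolated vehicle islets of each time, which asks how 96 hours outside the animal goes together with macrophage transcripts. These comparisons were not part of how the genes were picked, although the fresh vehicle libraries were, and picking for opposite cadmium effects can favour genes high in 6-week vehicle and low in 18-week vehicle islets. The comparisons share the 5 culture libraries. Culture, mouse age and depth cannot be told apart in this design. Class II genes and Ccr2 were far lower in culture than in either fresh group, and genes of lipid handling and the lysosome were far higher. The C1q sum in culture lay within the wide range of the 6-week libraries.

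Of the 7 class II genes 6 fell against both fresh groups and H2-DMa against 6 weeks alone. Cd74 stood at 263, 244, 207, 156 and 185 CPM in the 5 vehicle libraries of 6 weeks, at 44.2, 46.5, 45.7, 61.6, 51.7 and 51.1 CPM in the 6 of 18 weeks and at 9.63, 11.6, 9.06, 8.78 and 7.05 CPM in the 5 of culture. Every culture library lay below every fresh library. The log2 fold change was −4.49 ± 0.161 (SE) against 6 weeks and −2.47 ± 0.119 against 18 weeks (edgeR adjusted p = 4.33e-11 and 2.65e-10).

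H2-Aa and H2-Ab1 encode the alpha and beta chains of the class II molecule I-A. H2-Aa stood at 108, 98.1, 80.8, 67.9 and 80.3 CPM at 6 weeks, at 56.9, 51.5, 48.7, 64.4, 49.7 and 53.4 at 18 weeks and at 4.46, 6.98, 4.58, 4.81 and 4.35 in culture. H2-Ab1 stood at 79.8, 76.4, 58.0, 47.2 and 54.4 CPM, at 22.6, 26, 21.8, 33.4, 28.2 and 28.8 and at 2.19, 3.88, 2.24, 2.50 and 1.86 in the same order. Culture and fresh libraries were parted by a wide gap for both chains. H2-Aa fell by 4.08 ± 0.153 and 3.45 ± 0.124 log2 units against 6 and 18 weeks (edgeR adjusted p = 6.73e-11 and 1.5e-11), and H2-Ab1 fell by 4.61 ± 0.199 and 3.42 ± 0.171 (edgeR adjusted p = 3.1e-10 and 3.69e-10).

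H2-Eb1, a further class II beta chain gene, fell by 4.86 ± 0.159 and 3.98 ± 0.131 log2 units, the widest change of the class II genes against either group (edgeR adjusted p = 1.62e-11 and 5.71e-12). H2-DMb1, a chain of the peptide loader H2-DM, fell by 2.57 ± 0.239 and 1.70 ± 0.200. Its partner H2-DMa stood at 6.96 ± 1.10 CPM (SD, n = 5) at 6 weeks, 3.19 ± 0.807 (n = 6) at 18 weeks and 4.0 ± 0.508 (n = 5) in culture, so it fell against 6 weeks (−0.77 ± 0.125) and did not pass against 18 weeks (0.29 ± 0.161, edgeR adjusted p = 0.127). The 2 H2-DM genes did not move alike, and H2-DMa shares exon bases with Brd2 on the other strand, so its counts are uncertain. Ciita stood at 6.27, 4.92, 4.68, 3.74 and 4.19 CPM at 6 weeks, at 2.75 to 4.84 CPM at 18 weeks with a median of 3.60, and at 1.33, 1.52, 0.861, 1.29 and 0.737 in culture. The transactivator gene fell by 2.03 ± 0.201 and 1.73 ± 0.209 (edgeR adjusted p = 1.48e-06 and 3.05e-06), nearer to 0 than Cd74, H2-Aa, H2-Ab1 and H2-Eb1, a difference between genes that was not tested.

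The H2 genes named here lie together on chromosome 17 (GRCm38), in the order H2-DMa (chr17:34119541-34139101), H2-DMb1 (chr17:34153072-34160230), H2-Ab1 (chr17:34257689-34269419), H2-Aa (chr17:34282744-34287823) and H2-Eb1 (chr17:34305867-34316674). The 120 bases before the start of H2-Aa and H2-Eb1, which fell against both fresh groups, are shown from the RefSeq promoter table of GRCm38.p6. Each is given 5′ to 3′ on the gene's own strand. Capitals mark TGATTGG, the form of the Y box searched for, and, before it, AACTGATGA or TGACGTCA, letters of the kind found in the X box region.
H2-Aa (chr17:34287824-34287943, minus strand): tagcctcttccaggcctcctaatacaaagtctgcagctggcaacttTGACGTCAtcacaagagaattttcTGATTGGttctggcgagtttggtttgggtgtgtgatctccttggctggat
H2-Eb1 (chr17:34305747-34305866, plus strand): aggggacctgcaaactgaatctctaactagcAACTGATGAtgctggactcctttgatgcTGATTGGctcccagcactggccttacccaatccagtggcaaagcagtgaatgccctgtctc
TGATTGG began 50 bases before the start of H2-Aa, 61 before that of H2-Eb1 and 63 before that of H2-DMb1. The other box began at 74, 89 and 92 bases. Windows of 250 upstream bases were searched on both strands for 28 of the 37 genes, 4 of them class II genes, and the other 9 had no entry. TGATTGG was found in 7.23% of all 32851 windows and in those of Cd68, H2-Aa, H2-DMb1 and H2-Eb1, AACTGATGA in 0.231%, and TGACGTCA in 1.55%. TGATTGG together with either of the other motifs stood in 0.161% of windows, and among the 37 genes in H2-Aa, H2-DMb1 and H2-Eb1. The window of H2-DMa was searched too and held none of these motifs. The motifs describe letters in these windows and nothing about binding.

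Summed over 7 genes, class II transcripts stood at 448 ± 88.9 CPM (SD, n = 5) in 6-week vehicle, 178 ± 19.2 (n = 6) in 18-week vehicle and 25.0 ± 4.39 (n = 5) in culture vehicle libraries. Markers of other cells that carry class II moved too. The 11 dendritic cell markers summed to 15.3 to 24.3 CPM at 6 weeks, 11.5 to 13.9 at 18 weeks and 3.55 to 5.71 in culture, with 10 of the 11 detected there and Cd209a at 0. Of those tested, 8 of 8 fell against 6 weeks, and 3 of 4 fell and 1 rose against 18 weeks, beside 34.8% and 36.6% of all genes lower. Of these, 6 of the 8 and 2 of the 4 passed the count filter through 1 group alone and so had to differ. Zbtb46, a transcription factor of conventional dendritic cells that passed through both groups, fell by 3.32 ± 0.188 and 3.51 ± 0.201 log2 units. Endothelial markers were lower in the same comparisons too (medians −2.92 and −2.66), and their part in the Zbtb46 values was not tested. Clec9a, a receptor of cross-presenting dendritic cells that passed through the fresh groups alone, had means of 1.65 CPM at 6 weeks, 1.48 at 18 weeks and 0.0914 in culture. The 21 lymphocyte markers summed to 27.5 to 71.4 CPM, 4.31 to 26.8 and 7.09 to 8.73, and 6 of them, Cd3e and Ms4a1 among these, were at 0 in culture. Of those tested, 7 of 10 fell and 1 rose against 6 weeks. Of the 10, 6 passed the filter through the 6-week group alone, the B cell genes Pax5 and Cd79b among them. Against 18 weeks, where the sums overlapped with culture, 0 of 4 fell and 2 rose. Cd4, 1 of these 4, passed the filter through 1 group alone and so had to differ. Pax5 and Cd79b had means of 1.32 and 1.99 CPM at 6 weeks and 0.00689 and 0.0286 in culture. The part of dendritic cells and lymphocytes in the class II result was not tested.

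Monocyte and resident macrophage genes split in culture. Ccr2, the receptor by which monocytes are recruited, stood at 6.55, 6.19, 4.51, 4.56 and 3.31 CPM at 6 weeks, at 1.77 to 4.60 CPM at 18 weeks with a median of 3.26, and at 0.144, 0.0705, 0.0344, 0.0367 and 0.0702 in culture, where 4, 2, 1, 1 and 2 reads were counted. It fell by 6.06 ± 0.322 and 5.54 ± 0.374 log2 units. In both comparisons Ccr2 passed the count filter through the fresh group alone and so had to differ, and no p-value is given for it. Clec4d, a C-type lectin of activated monocytes and macrophages, went the other way, from 1.55, 1.44, 1.02, 0.344 and 0.598 CPM at 6 weeks to 1.29, 1.41, 2.93, 2.65 and 2.84 in culture (1.18 ± 0.365, edgeR adjusted p = 0.0114, or 2.26 without 6-week vehicle libraries 1 to 3). At 18 weeks Clec4d was at 0 in 3 of 6 vehicle libraries and reached 0.0913 CPM (culture against 18 weeks 5.93 ± 0.501, and 7.04 without vehicle library 2). Cd14, the co-receptor for bacterial lipopolysaccharide, fell by 1.68 ± 0.273 against 6 weeks and was at 0.58 ± 0.259 against 18 weeks (edgeR adjusted p = 0.0599).

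Among resident macrophage genes, F13a1, coagulation factor XIII subunit A, fell against both groups, with log2 fold changes of −5.10 ± 0.473 against 6 weeks, or −3.89 without vehicle libraries 1 to 3, and −2.69 ± 0.203 against 18 weeks (19.2 ± 10.1 CPM at 6 weeks, 3.44 ± 0.686 at 18 weeks and 0.546 ± 0.127 in culture). Mrc1, the mannose receptor, stood at 24.2, 27.6, 24.5, 4.30 and 4.64 CPM at 6 weeks, at 1.59, 3.01, 1.32, 3.72, 1.85 and 1.95 at 18 weeks and at 1.11, 1.87, 1.58, 1.58 and 2.49 in culture. Culture overlapped with 18 weeks, and 6-week libraries 1 to 3 stood far above 4 and 5. Mrc1 fell by 3.27 ± 0.556 against 6 weeks, or by 1.34 without vehicle libraries 1 to 3 (edgeR adjusted p = 0.000175 and 0.000195), and was at −0.37 ± 0.273 against 18 weeks (edgeR adjusted p = 0.237).

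The hemoglobin scavenger receptor gene Cd163 stood at 14.4, 19.3, 15.4, 2.04 and 2.35 CPM at 6 weeks, at 0 to 0.561 at 18 weeks and at 0.0359, 0.176, 0.0689, 0 and 0.0702 in culture, from 10 reads in all. Against 6 weeks it fell by 7.15 ± 0.964 log2 units, or by 4.85 without vehicle libraries 1 to 3 and 7.80 without culture library 2, and against 18 weeks it did not pass the count filter. Cbr2, a carbonyl reductase, had 956 reads at 6 weeks, 7 at 18 weeks and 1 in culture, a ratio of 550.2 between 6 weeks and culture with a 95% interval of 98.5 to 21754 that covers counting error only, and of 143 (25.1 to 5727) when only 6-week libraries 4 and 5 were used. Cd209f, a lectin of the DC-SIGN family, had 303 reads at 6 weeks and 0 in culture, which is at least 58.1-fold lower with 3 counts over the group as the floor, and at least 21.7-fold lower than 6-week libraries 4 and 5. Both were thus at or near 0 in culture.

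Fcrls and Folr2 did not follow the other resident genes. Fcrls, an Fc receptor-like gene of tissue macrophages and microglia, stood at 3.0 ± 1.49 CPM at 6 weeks and 3.9 ± 0.587 in culture (0.40 ± 0.301, edgeR adjusted p = 0.251, and past the threshold as higher in culture without 6-week vehicle libraries 1 to 3, 1.48, edgeR adjusted p = 2.54e-05) against 0.384 ± 0.157 at 18 weeks (3.18 ± 0.226). Folr2, folate receptor beta, stood at 0.898, 1.12, 0.689, 0.473 and 0.342 CPM at 6 weeks, at 0.0407 to 0.361 at 18 weeks with a median of 0.224, and at 0.395, 0.634, 0.482, 0.404 and 0.526 in culture. It was at −0.50 ± 0.313 against 6 weeks (edgeR adjusted p = 0.174), at 0.29 without vehicle libraries 1 to 3 and passed as lower without libraries 4 and 5 (−0.85) or without library 5 alone (−0.66). Against 18 weeks Folr2 rose by 1.38 ± 0.410, and Gm10602 overlaps its exons on the other strand.

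The 3 lipid and lysosome genes rose in culture against both groups. Gpnmb stood at 3.09, 1.84, 1.83, 0.838 and 0.705 CPM at 6 weeks, at 0.285, 0.621, 0, 0, 0.0589 and 0.122 at 18 weeks and at 123, 158, 159, 150.2 and 134 in culture. No fresh library came near any culture library. Gpnmb rose by 6.45 ± 0.235 log2 units against 6 weeks, an 87.3-fold difference (edgeR adjusted p = 5.14e-11), or by 7.58 (191-fold) without 6-week vehicle libraries 1 to 3. Against 18 weeks Gpnmb was higher by 9.22 ± 0.332, or 10.28 without vehicle library 2. There it passed the count filter through the culture group alone and so had to differ.

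Trem2, a lipid-sensing receptor that signals through Tyrobp, stood at 1.65, 1.31, 1.06, 1.12 and 0.919 CPM at 6 weeks, at 0.491 to 0.795 at 18 weeks with a median of 0.716, and at 8.05, 8.28, 9.54, 8.30 and 8.98 in culture. It rose by 2.85 ± 0.141 and 3.58 ± 0.125 log2 units (edgeR adjusted p = 1.32e-09 and 1.16e-11). Atp6v0d2 stood at 0.281, 0.380, 0.236, 0.0215 and 0.0214 CPM at 6 weeks, at 0 in all 6 libraries of 18 weeks and at 2.26, 3.31, 4.86, 6.10 and 4.70 in culture. Against 6 weeks it rose by 4.48 ± 0.461, or 7.43 without vehicle libraries 1 to 3, and against 18 weeks it was at least 309-fold higher with a floor of 3 counts over the group.

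The 6 core genes that rose against 6 weeks also rose against 18 weeks. Lyz2 stood at 131, 164, 126, 49.0 and 79.7 CPM at 6 weeks, at 15.3, 16.7, 11, 19.6, 19.4 and 12.5 at 18 weeks and at 285, 298, 293, 242 and 249.6 in culture. It rose by 1.34 ± 0.242 against 6 weeks, or by 2.12 without vehicle libraries 1 to 3, and by 4.08 ± 0.139 against 18 weeks (edgeR adjusted p = 0.000278 and 9.21e-12). Cd68, a glycoprotein of macrophage lysosomes, stood at 9.80, 8.15, 8.84, 4.06 and 5.07 CPM, then at 1.69, 2.52, 2.46, 3.44, 4.06 and 3.54, and at 19.2, 22.4, 27.9, 26.7 and 23.6 in culture (1.76 ± 0.203, or 2.42 without 6-week vehicle libraries 1 to 3, and 3.04 ± 0.182). Itgax, the integrin CD11c of islet macrophages and dendritic cells, stood at 6.27 to 11.4 CPM at 6 weeks, at 3.54 to 6.28 at 18 weeks and at 12.7 to 19.3 in culture, and rose by 1.07 ± 0.158 and 1.78 ± 0.144. CD11c thus went the other way from class II. Mpeg1, the pore-forming protein perforin-2, rose by 1.25 ± 0.113 and 2.16 ± 0.0917, Tyrobp by 1.01 ± 0.134 and 1.81 ± 0.0855, and Ctss by 0.52 ± 0.116 and 0.92 ± 0.0906.

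Several other core genes stood between the fresh groups. Csf1r stood at 53.6, 54.1, 47.7, 21.8 and 26.4 CPM at 6 weeks, at 9.43, 12.9, 11, 11.9, 13.4 and 11.6 at 18 weeks and at 15.4, 18.5, 16.4, 15 and 16.3 in culture (−1.29 ± 0.230 against 6 weeks, or −0.53 without vehicle libraries 1 to 3, and 0.45 ± 0.0944 against 18 weeks). Adgre1, the F4/80 antigen, stood at 21.0, 21.0, 18.6, 8.53 and 12.1 CPM, at 5.10 to 7.36 with a median of 6.17, and at 8.98, 9.90, 9.95, 9.44 and 9.23 in culture. Its fall against 6 weeks (−0.75 ± 0.209, edgeR adjusted p = 0.00641) ended without vehicle libraries 1 to 3 (−0.09, edgeR adjusted p = 0.541), and against 18 weeks it rose by 0.58 ± 0.0959. The integrin gene Itgam (−1.64 ± 0.247 and 2.87 ± 0.387) and Laptm5, a lysosomal protein of blood cells (−0.61 ± 0.189 and 2.02 ± 0.137), also fell against 6 weeks and rose against 18 weeks, but the fall of Laptm5 ended without 6-week vehicle libraries 1 to 3 (−0.03, edgeR adjusted p = 0.844). Ptprc, the CD45 antigen of all leukocytes, fell against both (−0.78 ± 0.169 and −0.40 ± 0.156). Cx3cr1, the fractalkine receptor, was at −0.03 ± 0.142 and 0.45 ± 0.120 and the Fc receptor chain Fcer1g at −0.32 ± 0.140 and 0.29 ± 0.110, each past the threshold against 18 weeks only, and Aif1, the calcium-binding protein IBA1, passed in neither comparison.

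C1q, read in the same libraries, depended on which 6-week libraries it was set against. C1qa stood at 73.2, 71.9, 63.3, 52.7 and 54.5 CPM at 6 weeks, at 38.4, 41.7, 55.3, 49.3, 38.4 and 44.6 at 18 weeks and at 77.6, 63.2, 74.1, 65.5 and 76.0 in culture. Against 6 weeks C1qa was at 0.20 ± 0.0933, C1qb at −0.31 ± 0.196 and C1qc at −0.03 ± 0.256 (edgeR adjusted p = 0.0701, 0.176 and 0.912). Without vehicle libraries 1 to 3 all 3 chains passed as higher in culture, at 0.44, 0.31 and 0.86 (edgeR adjusted p = 0.000269, 0.0291 and 5.06e-05), and the sum of the chains was 134 to 160.0 CPM in those 3 libraries, 84.9 and 98.9 in numbers 4 and 5 and 119.7 to 135 in culture. C1qa also passed when 6-week vehicle library 1 or 2 or culture library 2 alone was left out (0.27, 0.26 and 0.24). Against 18 weeks the 3 chains rose by 0.65 ± 0.0943, 1.30 ± 0.0946 and 1.65 ± 0.0952.

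Taken as a ratio to C1q within each library, class II transcripts stood at 1.84 ± 0.156 log2 units (SD, n = 5) at 6 weeks, 1.47 ± 0.204 (n = 6) at 18 weeks and −2.36 ± 0.289 (n = 5) in vehicle culture, a turn from 3.58 times to 0.195 times the C1q sum. The lipid and lysosome genes stood at −5.45 ± 0.324, −6.28 ± 0.598 and 0.31 ± 0.192 on the same scale, and the resident scavenger genes at −1.47 ± 0.797, −3.31 ± 0.318 and −4.25 ± 0.192. The class II ratio was lower in every culture library than in any fresh one. These sums are over the listed genes and carry no test.

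**Figure D2:**
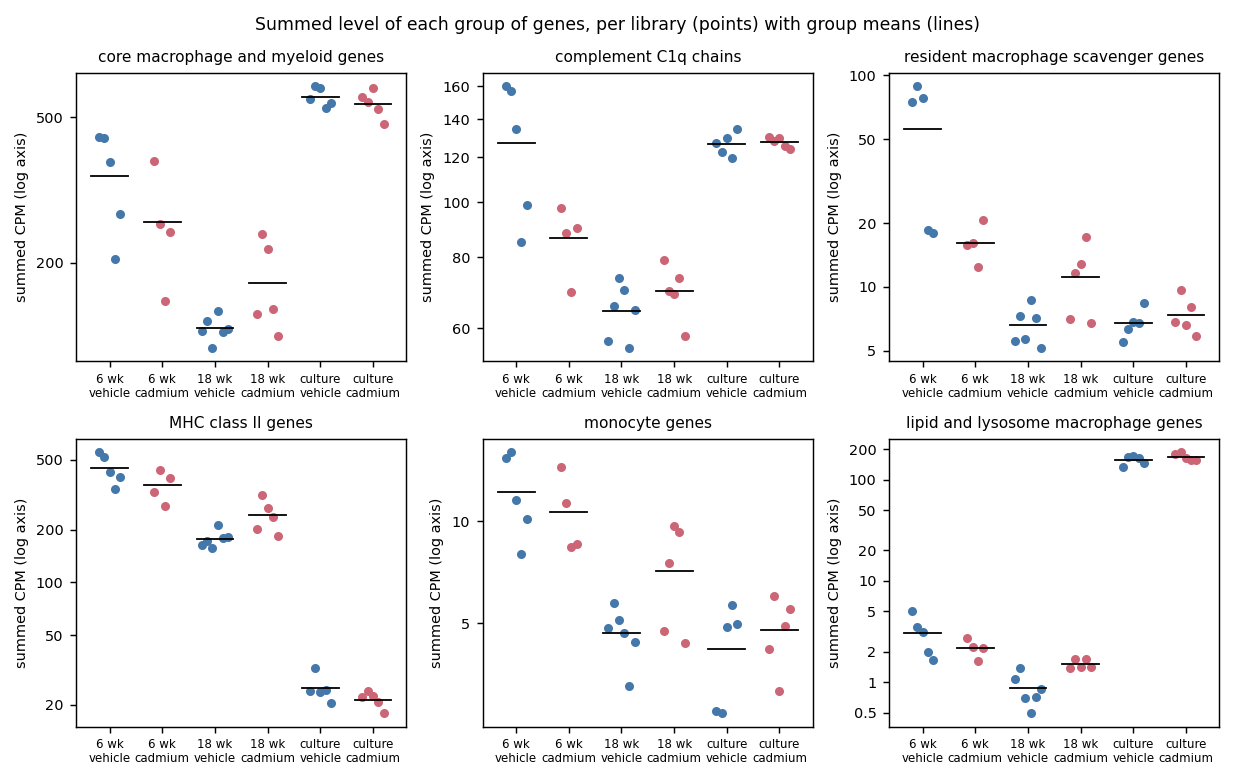
Summed CPM (log axis) of each of the 6 role groups in each library, with 1 point per library, blue for vehicle and red for cadmium, and black lines at the group means. Class II sums lie at 17.8 to 32.3 CPM in the 10 culture libraries and at 158 to 558 in the 20 fresh ones, whereas C1q sums in culture (119.7 to 135) lie within the range of the 6-week vehicle libraries (84.9 to 160.0).

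The 3 C1q chains did not keep 1 ratio across groups. C1qa over C1qb was 1.60 to 2.76 in 6-week vehicle, 3.16 to 5.64 in 18-week vehicle and 2.14 to 3.11 in culture vehicle libraries, and within the 6-week vehicle group it was lowest in libraries 1 to 3. C1qc over C1qb stood at 0.685 to 0.902, 0.673 to 0.936 and 0.978 to 1.10. From 6 to 18 weeks C1qa fell least of the 3, by 0.54 ± 0.113 log2 units against 1.70 ± 0.197 for C1qb and 1.78 ± 0.251 for C1qc. Without 6-week vehicle libraries 1 to 3 the values were −0.33, −1.11 and −0.92, and the call of C1qa ended (edgeR adjusted p = 0.0577). The 3 genes are neighbours on chromosome 4 (C1qb chr4:136880129-136886187, C1qc chr4:136889804-136893065 and C1qa chr4:136895917-136898803) and are read from the same strand.

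**Figure D3:**
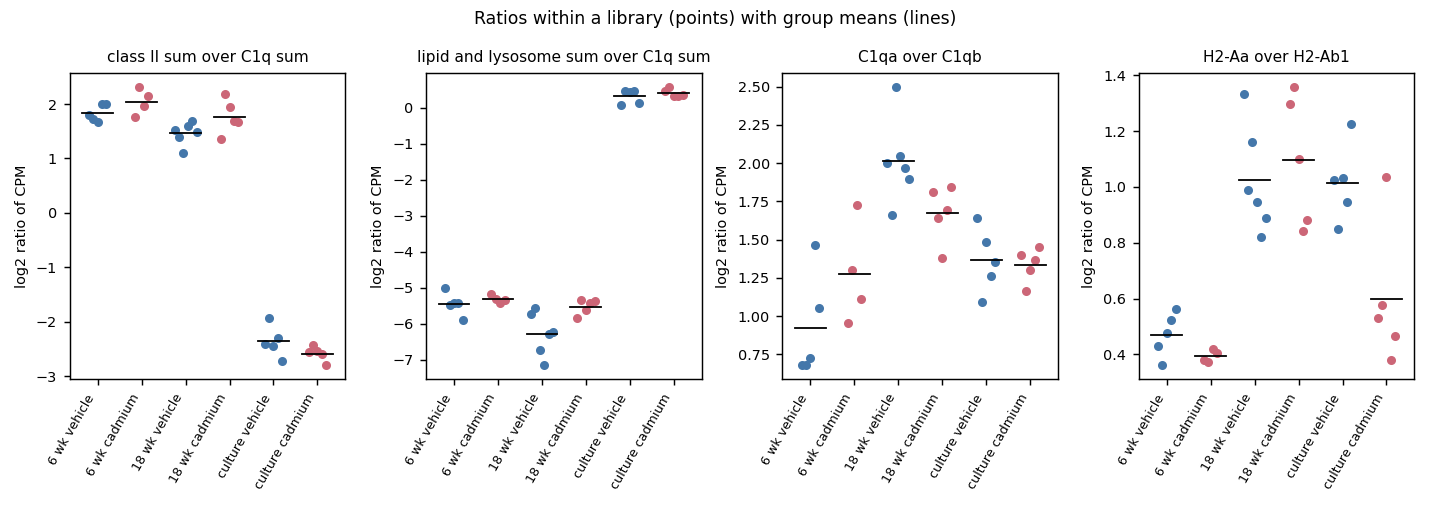
Log2 ratios of CPM within each library, with 1 point per library, blue for vehicle and red for cadmium, and black lines at group means. The class II over C1q ratio lies between −2.80 and −1.92 in culture and between 1.11 and 2.31 in fresh islets, lipid and lysosome genes over C1q move the opposite way, C1qa over C1qb has its highest mean in the 18-week vehicle group, and H2-Aa over H2-Ab1 is lower in 4 of 5 cultured cadmium libraries than in every cultured vehicle library.

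Counted over the list, 10 of the 37 genes rose and 19 fell in culture against 6 weeks, beside 33% and 34.8% of all 17605 genes tested, and the median was −0.61 beside 0.00 over all genes. Without 6-week vehicle libraries 1 to 3, 14 rose and 16 fell of 36 tested, and the median was 0.01. With a change of at least 4-fold also required, 3 rose and 12 fell, beside 3.41% and 4.31% of all genes. Against 18 weeks 34 were tested, 21 rose and 9 fell, beside 30.6% and 36.6% of 18449 genes, and the median was 0.62 beside −0.05 over all genes. At least 4-fold changes were 10 up and 6 down, beside 1.78% and 10.7%. Cd163, Cbr2 and Cd209f were not tested there, and Cd163, Cbr2, Cd209f, Ccr2 and Atp6v0d2 against 6 weeks and Itgam, Fcrls, Folr2, Ccr2, Clec4d, Gpnmb and Atp6v0d2 against 18 weeks passed the count filter through 1 group alone, so those had to differ.

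A reading that needs neither test nor a single fresh group is whether all 10 culture libraries lie on 1 side of all 20 fresh ones, a rule chosen after the values were seen. Every culture library lay above every fresh library for 8 of the 37 genes, beside 4.77% of 22721 genes, namely Cd68, Itgax, Mpeg1, Tyrobp, Lyz2, Trem2, Gpnmb and Atp6v0d2. Every culture library lay below every fresh library for 8 as well, beside 5% of all genes, namely F13a1, Cd74, H2-Aa, H2-Ab1, H2-Eb1, H2-DMb1, Ciita and Ccr2. Of the 7 class II genes only H2-DMa was missing from that side.

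**Figure D4:**
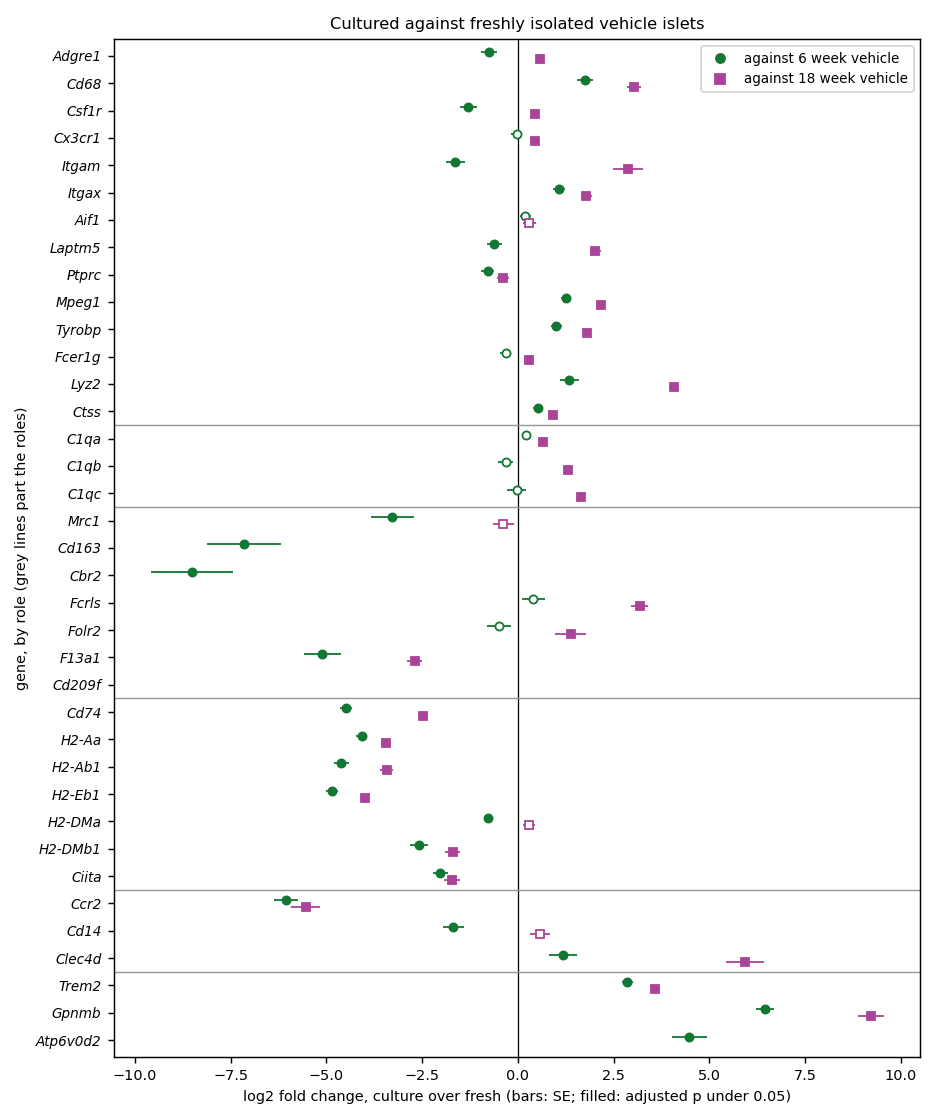
Log2 fold change of cultured over fresh vehicle islets for each gene (rows, by role), against 6 weeks (green circles) and 18 weeks (purple squares), with SE bars and filled symbols where the edgeR adjusted p was under 0.05. Ccr2, F13a1, Ptprc and every class II gene but H2-DMa lie left of 0 in both comparisons, and Trem2, Gpnmb and Clec4d lie right of it. Genes with no read in 1 of the groups (Cd209f, and Atp6v0d2 against 18 weeks) or not tested are not drawn.

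Further genes of the same pathways were read from lists, whose counts stand beside 33% of all genes higher and 34.8% lower in culture against 6 weeks and 30.6% and 36.6% against 18 weeks. Of 24 other lysosome and lipid-associated genes 23 were tested in each comparison. Against 6 weeks 17 rose and 3 fell (median 0.80), and against 18 weeks 19 rose and 4 fell (median 1.26). Npl passed the count filter through 1 group alone against 18 weeks and so had to differ. Fabp5, a fatty acid carrier, rose by 3.89 ± 0.150 and 2.75 ± 0.137 log2 units and the cathepsin gene Ctsb by 0.99 ± 0.0653 and 1.97 ± 0.0569. Cd63, a membrane protein of late endosomes, rose by 1.67 ± 0.0439 against 6 weeks, and Lipa, the lysosomal acid lipase, by 1.57 ± 0.0762 against 18 weeks. Many of these genes are active in endocrine and stromal cells too, so their levels are not macrophage levels alone.

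Of 8 other class II genes, 6 were tested against 6 weeks and 5 fell, beside 34.8% of all genes. H2-Ob, a chain of the loading inhibitor H2-DO, and H2-DMb2 passed the count filter through the 6-week group alone and so had to differ, with means of 1.72 and 1.06 CPM at 6 weeks and 0.0213 and 0.0504 in culture. The class II promoter factors Rfxank and Rfx5 were at −0.60 ± 0.0731 and −0.23 ± 0.0635 against 6 weeks, and Rfxank rose by 0.31 ± 0.122 against 18 weeks, where 4 were tested. These factors are expressed in most cells.

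Of 19 receptor, ligand and transcription factor genes of myeloid cells, 4 rose and 8 fell against 6 weeks (17 tested, median −0.29), beside 33% and 34.8% of all genes, and 10 rose and 1 fell against 18 weeks (15 tested, median 1.08), beside 30.6% and 36.6%. Without 6-week vehicle libraries 1 to 3, 7 rose and 5 fell against 6 weeks. Flt3, a growth factor receptor of dendritic cell precursors, and the transcription factor gene Irf4 passed the filter through the 6-week group alone, with means of 0.645 and 1.47 CPM there and 0.00719 and 0.0917 in culture. Id2, an inhibitor of transcription factors, rose by 2.0 ± 0.0557 and 2.82 ± 0.0930 against 6 and 18 weeks. The CSF1R ligand gene Csf1 rose by 1.08 ± 0.0957 against 18 weeks. Of 16 chemokine genes 2 rose and 9 fell against 6 weeks (13 tested, median −1.16), and 5 rose and 0 fell against 18 weeks (9 tested, median 0.29). Cxcl2 and Ccl4 passed through the 6-week group alone, with means of 2.89 and 1.56 CPM there and 0.194 and 0.199 in culture. Against 18 weeks Ccl5 and Cxcl14 passed the filter through 1 group alone and so had to differ. The interleukin 1 receptor antagonist gene Il1rn passed through the culture group alone and so had to differ, with means of 0.266 CPM at 6 weeks, 0.11 at 18 weeks and 2.25 in culture.

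Markers of non-immune cells moved beside these genes. Endothelial markers summed to 729 to 908 CPM at 6 weeks, 495 to 615 at 18 weeks and 62.2 to 109 in culture, and acinar markers to 27984 to 52150, 2605 to 16337 and 72.5 to 131. Stellate and fibroblast markers summed to 499 to 949.8, 244 to 347 and 857 to 1770.0. Their part in the results was not tested.

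Cadmium in culture is the exposure that had no part in choosing the genes. None of the 33 genes tested passed (edgeR, 0 at an adjusted p under 0.05, and DESeq2 also 0), beside 0.00597% of 16743 genes by edgeR, which is 1 gene. At an unadjusted p under 0.05 by edgeR there were 2 of the 33, beside 5.49% of all genes. The median over the 33 was −0.02, and Cd163, Cbr2, Cd209f and Ccr2 did not pass the count filter, with at most 17 reads in all 5 cadmium libraries.

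H2-Aa was the gene furthest from 0. It stood at 4.46, 6.98, 4.58, 4.81 and 4.35 CPM in vehicle and at 3.55, 4.13, 4.32, 2.76 and 3.04 in cadmium cultures, and the groups did not overlap, which held for no other of the 37 genes on this side, beside 0.409% of all genes, and for 0 on the higher side, beside 0.317%. The log2 fold change was −0.50 ± 0.156 (95% interval −0.83 to −0.16, edgeR adjusted p = 0.888), and −0.35 without vehicle library 2, the highest for H2-Aa. With the replicate number as a block H2-Aa passed (−0.49, edgeR adjusted p = 0.0478), as did 223 of all genes, although the numbers were not shown to pair the libraries. Cd74 was at −0.23 ± 0.129 (−0.50 to 0.05), H2-Eb1 at −0.25 ± 0.166, H2-Ab1 at −0.12 ± 0.181 and Ciita at 0.00 ± 0.208 (−0.44 to 0.44).

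The macrophage genes varied little between culture libraries, so intervals were narrow for the abundant ones. Csf1r stood at 15.8, 16.9, 18.8, 14.9 and 13.6 CPM with cadmium (−0.03 ± 0.0833, −0.21 to 0.15), C1qa at 74.3, 66.1, 71.5, 69.7 and 69.0 (−0.02 ± 0.0527, −0.13 to 0.09) and Lyz2 at 286, 245, 301, 252 and 226 (−0.06 ± 0.0764, −0.22 to 0.10). Adgre1 stood at 8.30, 9.09, 8.61, 8.14 and 7.25 (−0.20 ± 0.0733, −0.35 to −0.04, edgeR adjusted p = 0.888). All 4 intervals lay between −0.35 and 0.15.

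Of the genes that were high in culture, Gpnmb stood at 165, 174, 152, 142 and 142 CPM with cadmium (0.10 ± 0.0743, −0.06 to 0.26), Trem2 at 8.27, 7.94, 7.73, 9.52 and 8.12 (−0.05 ± 0.0765), Cd68 at 22.7, 29.1, 23.5, 23.1 and 22.8 (0.02 ± 0.0948) and Itgax at 14.9 to 19.7 (0.03 ± 0.101). Atp6v0d2, at 4.41, 7.69, 3.55, 5.63 and 7.12, had a wider interval (0.42 ± 0.239, −0.09 to 0.93), as had Clec4d (0.25 ± 0.248, −0.28 to 0.78) and Mrc1 (0.12 ± 0.216, −0.34 to 0.58). Stellate and fibroblast markers beside them summed to 857 to 1770.0 CPM in vehicle and 1157 to 2492 in cadmium cultures, and their part was not tested.

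Cadmium in vivo is described without tests, since these contrasts chose some of the genes. At 6 weeks all 36 genes measured lay below 0 (median −0.38, beside a median of 0.00 over all 18080 genes, of which 0% passed by edgeR, 923 had an unadjusted p under 0.05 and DESeq2 called 11). The resident scavenger genes lay lowest, with a median of −1.87. Mrc1 stood at 3.88, 5.40, 3.21 and 6.30 CPM in the 4 cadmium libraries and Cd163 at 2.24, 2.04, 1.00 and 2.81, within or near the 4.30 and 4.64 and the 2.04 and 2.35 of vehicle libraries 4 and 5. For both genes vehicle libraries 1 to 3 stood far above all other 6-week libraries.

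Folr2 was at 0.426, 0.225, 0.111 and 0.423 CPM with cadmium at 6 weeks, Csf1r at 30.3, 24.5, 17.4 and 23.9, C1qa at 49.6, 50.6, 45.5 and 48.1 and H2-Aa at 61.9, 82.2, 53.8 and 74.2. In the 6-week vehicle libraries C1qa stood at 52.7 to 73.2 CPM, a description in a contrast that chose some of the genes. Cadmium library 1 was high for Lyz2 (166 CPM against 30.6 to 70.9 in the other 3), Itgam (7.33 against 1.00 to 2.74) and Adgre1 (19.4 against 6.14 to 9.24), but not for C1qa or class II. In the same libraries stellate and fibroblast markers summed to 869 to 949.8 CPM in vehicle 1 to 3, 499 and 569 in vehicle 4 and 5 and 499 to 964 with cadmium, and their part was not tested.

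At 18 weeks 32 of 33 genes measured lay above 0 (median 0.42, beside 0.00 over all 20911 genes, of which 0.359% passed, and 0 genes without the low-depth libraries). C1qa was the exception at 0.00 ± 0.108. Itgam, Folr2 and Gpnmb passed the count filter through the cadmium group alone, which favours a value above 0. Lyz2 stood at 18.3, 73.9, 51.1, 23.5 and 14.3 CPM with cadmium, high in libraries 2 and 3. These libraries also led for Ptprc (34.3 and 31.2 against 7.85 to 11.5), H2-Aa (108 and 85.5 against 55.3 to 71.1) and Cd74 (84.5 and 74.1 against 51.0 to 71.9). They are the libraries with the high lymphocyte sums. Their monocyte and neutrophil markers summed to 12.7 and 17.8 CPM, against 1.18 to 3.56 in the other cadmium libraries of 18 weeks. Other macrophage surface and phagocytic genes summed to 186 and 180 CPM there, against 89.1 to 124. The part of these cells in the values was not tested. Ciita stood at 10.1 CPM in library 2 and at 3.15 to 5.23 in the others.

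Library 4 of that group, which had the highest acinar sum of all (248990 CPM), was highest for Mrc1 (7.36, the others 2.11 to 5.47), Cd163 (1.10), Cbr2 (1.04) and Cd209f (0.642). Adgre1 varied little, at 7.91, 8.03, 7.90, 8.22 and 8.36 CPM against 5.10 to 7.36 in vehicle libraries. Acinar markers summed to 2605 to 16337 CPM in vehicle and 15044 to 248990 in cadmium libraries, stellate markers to 244 to 347 and 298 to 500.5, and their part was not tested.

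The effect at 18 weeks minus that at 6 weeks lay above 0 for all 37 genes (median 0.93) and 13 of them passed, beside 1.68% of 22721 genes. This is the contrast by which some genes were picked, so nothing is read from the count. Mrc1 was at 2.83 ± 0.6, Cd163 at 3.60 ± 0.797 and H2-Aa at 0.88 ± 0.210.

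The culture effect minus the 6-week effect passed for 0 of the 37, beside 0% of 22721 genes, and the culture effect minus the 18-week effect for 0, beside 0.0176%. At an unadjusted p under 0.05 there were 12 of the 37 in either contrast, beside 3.34% and 13.2% of all genes. Both contrasts shared a setting with the choice of genes, so nothing is read from these counts. H2-Aa, on the lower side with cadmium at 6 weeks (−0.36 ± 0.145) and in culture (−0.50 ± 0.156), was at 0.53 ± 0.141 at 18 weeks.

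**Figure D5:**
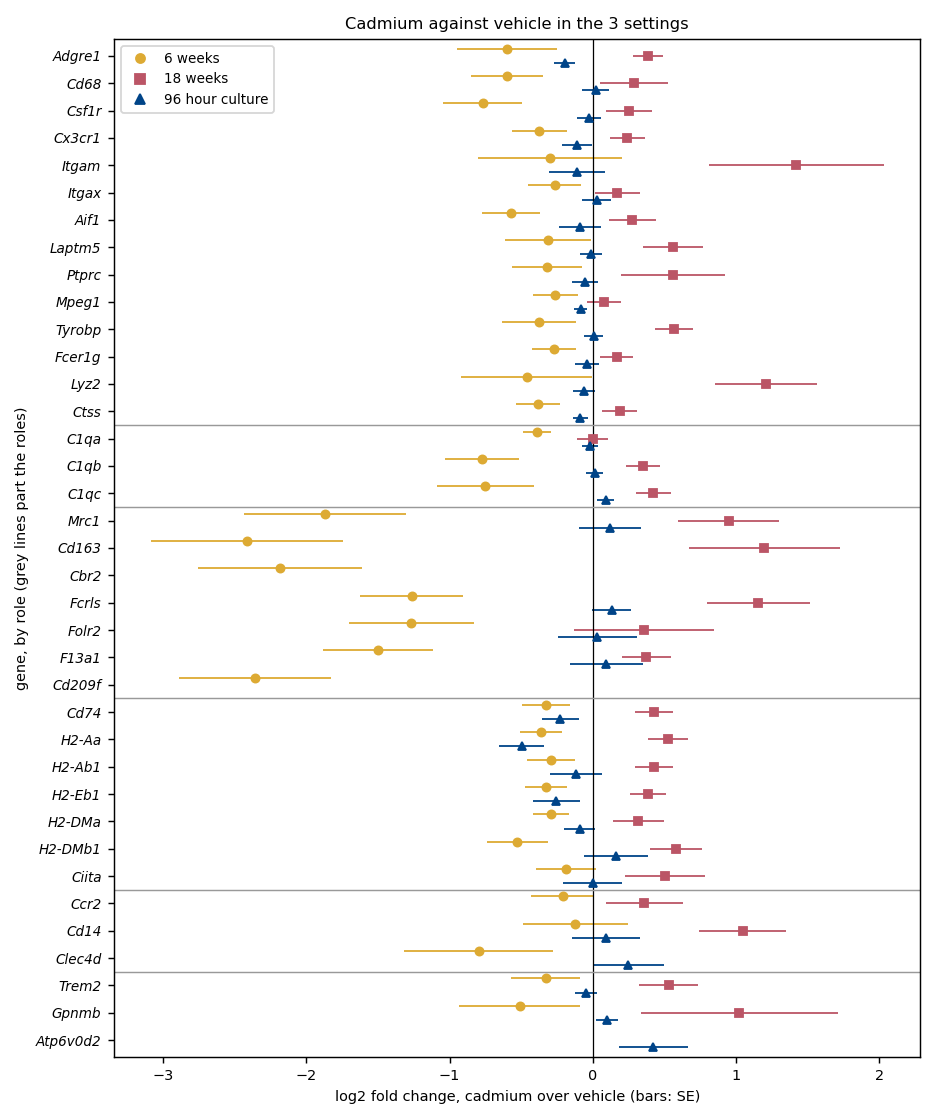
Log2 fold change of cadmium over vehicle for each gene (rows, by role) at 6 weeks (yellow circles), 18 weeks (red squares) and in 96-hour culture (blue triangles), with SE bars. The 6-week values lie left of 0, most 18-week values right of it, and culture values near 0 with shorter bars, apart from H2-Aa at −0.50 and Atp6v0d2 at 0.42. The in vivo values had a part in choosing genes.

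Vehicle islets of 18 weeks held less of nearly all these transcripts than those of 6 weeks, a comparison that uses vehicle libraries behind the choice of genes and in which duration, age and depth cannot be told apart. Of 36 genes tested 34 passed as lower and 0 as higher, beside 35.9% of 20551 genes lower and 35.9% higher, and the median was −1.39 beside 0.00 over all genes. Itgam, Cbr2, Folr2, Cd209f, Clec4d and Gpnmb passed the count filter through the 6-week group alone and so had to differ. Without 6-week vehicle libraries 1 to 3 the count of lower genes was 25, and the calls of Cx3cr1, Ptprc, Fcer1g, Ctss, C1qa, Ccr2, Folr2 (−1.20), Gpnmb (−1.89) and Trem2 (−0.61) were lost. Without 18-week vehicle library 2 Gpnmb was at −3.96 in place of −2.94.

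By role, resident scavenger genes had a median of −3.01, monocyte genes −2.36, C1q −1.70, class II −0.97 and core genes −0.96, and without 6-week vehicle libraries 1 to 3 −1.85, −1.98, −0.92, −0.76 and −0.65. Lyz2 was at −2.83 ± 0.257 (−2.09 without libraries 1 to 3), Cd74 at −2.11 ± 0.129 (−1.84) and Mrc1 at −3.01 ± 0.489 (−1.09). H2-Aa, at −0.72 ± 0.110, was lower by less than Cd74, and H2-Aa over H2-Ab1 stood at 1.28 to 1.48 at 6 weeks and 1.77 to 2.52 at 18 weeks. The genes that did not pass were Ciita (−0.39 ± 0.170, edgeR adjusted p = 0.0503, and past the threshold when vehicle library 4 of either time was left out) and Aif1 (−0.20 ± 0.153), and Ccr2 (−0.60 ± 0.233, edgeR adjusted p = 0.0324) lost its call without libraries 1 to 3 (−0.27, edgeR adjusted p = 0.457) and without any 1 of 6-week vehicle libraries 1 and 2 or 18-week vehicle libraries 1, 4, 5 and 6. Stellate and fibroblast markers beside them summed to 759 ± 209 CPM at 6 weeks and 296 ± 38.1 at 18 weeks, and their part was not tested.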

How the data were processed

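Per the submitters' processing notes, reads were trimmed with cutadapt 1.13, aligned with STAR to mm10 and counted per gene with HTSeq 0.6.1p1, and DESeq2 is also listed. The authors deposited raw counts for each of the 30 libraries over 54232 gene IDs, without normalization. The strand setting of the counting is not given in the sources used here. Symbols were matched for 54079 IDs (99.72%). No 2 libraries of a group were alike within sampling noise (lowest chi-square per degree of freedom 2.77 over 61 pairs). Totals ran from 9092759 to 58366797 counts.

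Each comparison was fitted over the libraries of its own groups with edgeR 4.0.16 in R 4.3.3 (filterByExpr with a minimum count of 10 and total of 15, TMM scaling, quasi-likelihood test, Benjamini-Hochberg adjustment over all genes tested, threshold 0.05), and checked on simulated data. Differences between cadmium effects were fitted over all groups. DESeq2 1.42.0 and the settings of the closing section served as alternatives. The genes and lists were chosen with earlier results of these data known. Values in every library were given for 18 genes, further genes past the threshold were named up to 20 by smallest p, and up to 4 genes past the threshold of smallest p were named from each other list. The requirement of 4-fold change, the count of groups that do not overlap and the fits without some 6-week vehicle libraries were chosen after seeing the data.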

Additional observations from a re-analysis of the deposited data

Results flagged for a closer look

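Among 143 groups of 4 to 6 libraries searched for a single library far from the others, of which chance marks about 1 in 20, 4 are among the genes described. Cd68 stood at 29.1 CPM in culture cadmium library 2 against 22.7 to 23.5 in the other 4. H2-Aa stood at 6.98 CPM in culture vehicle library 2 against 4.35 to 4.81, and this library also held the highest Cd74 and H2-Ab1 of its group. Ccr2 stood at 2.79 CPM in 6-week cadmium library 1 against 4.82 to 4.97. Atp6v0d2 stood at 0.0185 CPM in 6-week cadmium library 3 against 0.0409 to 0.0426, a gap that comes down to single reads.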

How the results depend on the processing

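Single-gene values were recomputed for the 18 genes and up to 20 past the threshold, not for all 37. Of these 2261 values, 2229 kept their direction and their side of the threshold, 16 passed it anew and 15 no longer passed. In the tally 1 changed sign, Folr2 in culture against 6-week vehicle without vehicle libraries 1 to 3 (0.29 in place of −0.50). Outside it, without the same libraries, C1qb changed sign and passed in culture against 6 weeks. There C1qc and Fcrls passed anew and Laptm5 no longer passed. Cx3cr1, Ptprc, Fcer1g and Ctss no longer passed at 18 against 6 weeks. DESeq2 size factors in place of TMM changed no sign among the 37 genes and moved the median of all genes by at most 0.065 log2 units. Leaving out single libraries gave 10 to 11 higher and 18 to 21 lower of the 37 genes in culture against 6 weeks, 20 to 22 and 8 to 9 against 18 weeks, and 32 to 35 lower at 18 against 6 weeks. Without 18-week vehicle library 2 the 18-week against 6-week values of Cbr2, Cd209f and Clec4d were −7.98, −7.05 and −6.03.

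Counts of all genes called for cadmium were less stable, and the cause was not tested. At 6 weeks (main count 0) DESeq2 gave 11, all groups in 1 fit 1, and leaving out single libraries 0 to 1. At 18 weeks (75) DESeq2 gave 751, all groups in 1 fit 2496, no count filter 140, acinar genes left out 40, the fit without the low-depth libraries 0, and leaving out single libraries 0 (without cadmium library 3 or vehicle library 1, 3, 4, 5 or 6) to 318 (without cadmium library 5). In culture (1) all groups in 1 fit gave 0, no count filter 7, and leaving out single libraries 1 to 2. The 18-week minus 6-week count (382) was 192 with no count filter. With the replicate number as a replicate block, the counts were 1 at 18 weeks and 223 in culture, 1 of the latter among the 37 genes as lower, H2-Aa (−0.49, edgeR adjusted p = 0.0478). Over its 15 alternatives H2-Aa ranged from −0.58 to −0.35, the latter without culture vehicle library 2, with adjusted p of 0.0478 to 1. Correlations of same-numbered libraries were −0.016 to 0.113 at 6 weeks, −0.113 to 0.259 at 18 weeks and 0.015 to 0.137 in culture, so the numbers are not shown to pair the libraries. The depth of 9092759 counts in the shallowest library leaves genes such as Cbr2 and Cd209f at a few reads.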

Other observations

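Of 33 other macrophage surface and phagocytic genes, 3 rose and 18 fell in culture against 6 weeks (32 tested, median −0.59), beside 33% and 34.8% of all genes, and 18 rose and 2 fell against 18 weeks (28 tested, median 0.54), beside 30.6% and 36.6%, by edgeR. Without 6-week vehicle libraries 1 to 3, 11 rose and 11 fell against 6 weeks. Ms4a7, a membrane protein of tissue macrophages, rose by 1.87 ± 0.105 and 1.94 ± 0.104 log2 units. Cd5l, a secreted macrophage protein, fell by 2.71 ± 0.280 against 6 weeks, and the Fc receptor gene Fcgr2b rose by 1.74 ± 0.177 against 18 weeks. The scavenger receptor gene Marco passed the count filter through the 6-week group alone (4.54 CPM against 0.0421 in culture) and Msr1 through culture alone (3.71 CPM against 0.215 at 18 weeks), so both had to differ. Timd4 and Vsig4 also passed through 1 group alone against 6 weeks. Of 20 cytokine and activation genes, 4 rose and 6 fell against 6 weeks (17 tested) and 5 rose and 3 fell against 18 weeks (13 tested), beside the same shares of all genes. Retnla, a marker of alternative activation, passed through the 6-week group alone (3.06 CPM against 0.0144 in culture).

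Class I antigen presentation, which nearly all cells carry, was read beside class II. Of 17 genes 13 fell and 1 rose against 6 weeks (median −0.51), beside 34.8% and 33% of all genes, and 2 fell and 4 rose against 18 weeks (median −0.04), beside 36.6% and 30.6%. Without 6-week vehicle libraries 1 to 3, 8 fell and 4 rose against 6 weeks. In the fit of all 5 libraries the peptide transporter genes Tap1 and Tap2 fell by 0.79 ± 0.0723 and 1.35 ± 0.106 against 6 weeks. The 6 erythroid markers summed to 0.379 to 0.772 CPM in vehicle culture against 11.2 to 23.7 at 6 weeks and 29.2 to 141 at 18 weeks. The 14 monocyte and neutrophil markers summed to 2.54 to 3.84 CPM in vehicle culture, 3.39 to 14.8 at 6 weeks and 0.733 to 9.67 at 18 weeks, with a median of 1.65 there below the 2.82 of culture, and with Ly6c2 and Ly6g at 0 in culture.

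H2-Aa over H2-Ab1, the alpha over the beta chain gene of I-A, was 1.28 to 1.48 in 6-week vehicle, 1.77 to 2.52 in 18-week vehicle, 1.80 to 2.34 in culture vehicle and 1.30 to 2.05 in culture cadmium libraries, without a test.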
